A study of Caenorhabditis elegans with 14 samples.

Results

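The cuticlins and the precuticle genes encode proteins of the apical extracellular matrix that covers *C. elegans*. They were taken here as every gene row whose name begins with *cut-* or *cutl-*, together with *noah-1*, *noah-2*, *fbn-1*, *dpy-6* and *let-653*. This gave 40 of the 42048 genes in each count file, namely 5 precuticle genes, 6 *cut* genes and 29 *cutl* genes, and all 40 were found by name in the WBcel235 annotation.

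The cuticle is a collagenous exoskeleton that the epidermis replaces at every moult. Before each new cuticle is laid down, the epidermis secretes a transient precuticle that shapes the apical surface, and the transcripts of many matrix genes come and go with each moulting cycle. Cuticlins are the cross-linked, insoluble proteins of the cuticle. Most of them carry a zona pellucida (ZP) domain, a module that lets secreted proteins polymerise, and several are needed for the alae, the lateral ridges over the seam cells.

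RNA was sequenced from whole synchronized larvae of 7 strain and stage groups with 2 files each. At the L4 stage, 36 h after synchronization at 25 °C, these were the double mutant of *nfki-1(cer1)* with *ikb-1(nr2027)*, each of its single mutants, and WT (N2 Bristol). At the L1 stage, which had 5 h of feeding followed by 3 h without food at 25 °C, the groups were *ikb-1(cer9)*, *nfki-1(cer2)* and WT. *nfki-1* and *ikb-1* are the worm homologs of the inhibitors of kappaB, and the comparisons ask how the loss of each affects transcripts at the 2 stages. *cer1* and *cer2* are CRISPR lesions of *nfki-1* with premature stop codons, *cer9* removes the start codon of *ikb-1*, and *nr2027* deletes the part that encodes its ankyrin repeats. The alleles thus differ between the stages, and at L4 the strains with 1 allele are called the *nfki-1* mutant and the *ikb-1* mutant below. The labels call the tissue whole animal, and the protocol recorded with the same samples also describes collagenase digestion and cell sorting.

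Reads counted on genes ran from 19735958 to 22373456 per file at L4 and from 57740500 to 63394016 at L1. After removal of the difference that all strains shared, the mean squared difference between the 2 L4 files of a strain was 0.636 to 0.686 times the counting variance, against 10.1 to 20.3 times between L1 replicates. Before that removal the mean squared difference was 3.81 to 4.44 times at L4 and 17.5 to 22.6 times at L1. After it, the L4 pairs showed no more than sampling noise between their files. Values under 1 are less than independent files would give, and whether the files share reads was not tested. Each pair was summed and counted as 1 sample. The L4 comparisons thus have 1 sample per strain and no test of their own. Their 95% intervals cover counting error only and treat the summed reads as independent, so they may be too narrow. Transcripts of *nfki-1* (listed as C33A11.1) were at 36.7 CPM in L4 WT, 25.0 in the *ikb-1* mutant, 6.85 in the *nfki-1* mutant and 7.23 in the double mutant, and those of *ikb-1* at 11.6, 3.44, 5.80 and 2.75, so that each was low where its allele was and *ikb-1* was also below WT in the *nfki-1* mutant. At L1 *nfki-1* had 158 and 147 CPM in WT and 98.7 and 75.8 in *nfki-1(cer2)*, and *ikb-1* had 52.9 and 48.2 in WT and 1.63 and 2.76 in *ikb-1(cer9)*. CPM give the reads of a gene relative to all reads on genes, scaled by TMM within a stage. The pharyngeal myosins *myo-1* and *myo-2* together had 15.8 to 36.7 CPM at L4 and 3384 to 6224 CPM at L1. Of the 3 seam markers, *nhr-73* had no read in any file. Another of them, *egl-18*, had 4.33 to 10.3 CPM at L4 and 16.7 to 30.4 CPM at L1.

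At L4 many of the members were lower in the mutants than in WT. All 5 precuticle genes were below WT by a log2 ratio of 2 or more, which is 4-fold, in each of the mutants, and *noah-1* and *noah-2* were lower by 7.70-fold to 11.8-fold. Of all tested genes, 6.4% were that low in the *nfki-1* mutant, 4.22% in the *ikb-1* mutant and 2.01% in the double mutant. Of the 6 *cut* genes, 4 were lower by that much in the *nfki-1* mutant, 4 in the *ikb-1* mutant and 1 in the double mutant, where *cut-2* was within a log2 ratio of 0.13 of WT. None of the 35 tested members was higher than WT by a log2 ratio of 2 in any mutant. In whole animals, fewer cells of a type and less RNA per cell cannot be told apart. Each L4 strain was harvested at 36 h only, so a shift in developmental timing cannot be told apart from these either. The authors name the speed of larval development as a possibility, and it was not tested here.

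The precuticle genes held the most reads of the 3 classes in WT L4 larvae. *noah-1*, at I:5874416-5878958 of WBcel235, encodes a ZP protein related to NompA of *Drosophila* that is needed for the embryo to elongate. It had 650 and 656 CPM in the WT files, 66.8 and 66.8 in the *nfki-1* mutant, 84.5 and 84.4 in the *ikb-1* mutant, and 66.0 and 64.0 in the double mutant. The WT files stood above all mutant files, with log2 ratios to WT of -3.28 (interval -3.33 to -3.23), -2.95 (-3.0 to -2.90) and -3.34 (-3.40 to -3.28) in the same order.

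*noah-2* (IV:14091254-14096626) encodes a second protein of this kind, which acts with NOAH-1 in the embryonic sheath. Its levels were 701 and 701 CPM in WT, 59.6 and 58.5 in the *nfki-1* mutant, 69.5 and 68.9 in the *ikb-1* mutant, and 90.9 and 92.0 in the double mutant. The log2 ratios were -3.56 (interval -3.62 to -3.51), -3.34 (-3.39 to -3.28) and -2.94 (-3.0 to -2.89). WT was again far above, and for *noah-2* the double mutant was the highest of the mutants.

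*fbn-1* (III:7625386-7641078) encodes a fibrillin-like matrix protein of the embryonic sheath. It had 177 and 183 CPM in WT, 33.2 and 32.5 in the *nfki-1* mutant, 31.1 and 31.4 in the *ikb-1* mutant, and 8.58 and 9.35 in the double mutant. Its log2 ratios were -2.45 (interval -2.53 to -2.37), -2.52 (-2.61 to -2.44) and -4.33 (-4.49 to -4.18), so that the double mutant was lower than either single mutant.

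*dpy-6* (X:8450381-8455640) encodes a mucin-like protein needed for body shape. Its levels were 60.2 and 61.3 CPM in WT, 10.8 and 10.6 in the *nfki-1* mutant, 12.3 and 12.8 in the *ikb-1* mutant, and 3.59 and 3.51 in the double mutant, with log2 ratios of -2.49 (interval -2.63 to -2.36), -2.27 (-2.41 to -2.13) and -4.10 (-4.36 to -3.86). Here too the double mutant was the lowest of the strains.

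*let-653* (IV:11885613-11891082) encodes a ZP protein of the precuticle in the excretory duct and the vulval lumen. It had 53.0 and 50.7 CPM in WT, 9.62 and 9.10 in the *nfki-1* mutant, 11.7 and 11 in the *ikb-1* mutant, and 4.85 and 4.62 in the double mutant. The log2 ratios were -2.46 (interval -2.61 to -2.32), -2.19 (-2.34 to -2.04) and -3.46 (-3.68 to -3.24). As for *fbn-1* and *dpy-6*, WT was the highest strain and the double mutant the lowest.

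**Figure D1:**
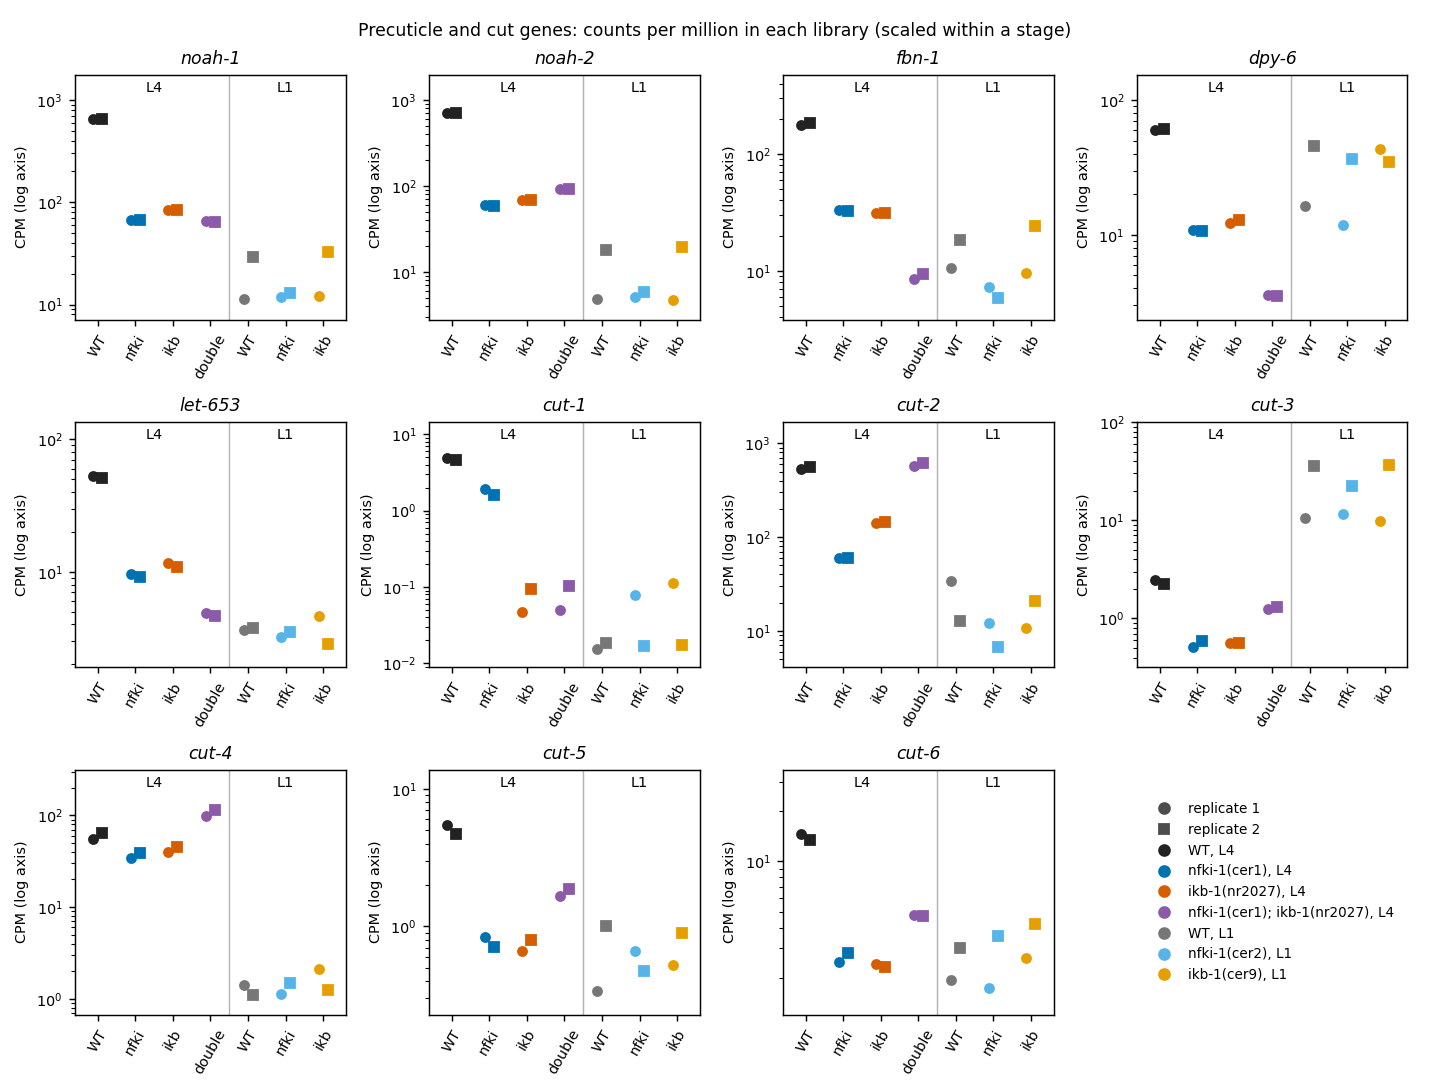
CPM (log axis, scaled within a stage) of the 5 precuticle genes and the 6 *cut* genes in each of the 14 files, with circles for replicate 1, squares for replicate 2 and a colour for each of the 7 strain and stage groups. At L4 the WT points of *noah-1* lie at 650 and 656 and those of the mutants between 64.0 and 84.5, and *cut-2* in the double mutant lies at 579 and 611, beside 530 and 555 in WT.

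The *cut* genes differed from each other. *cut-2* (V:13414949-13416064) encodes a cuticlin without a ZP domain that is cross-linked through dityrosine. It had 530 and 555 CPM in WT, 59.6 and 59.6 in the *nfki-1* mutant, 142.3 and 145.2 in the *ikb-1* mutant, and 579 and 611 in the double mutant. The single mutants lay below WT, by log2 ratios of -3.18 (interval -3.23 to -3.12) and -1.91 (-1.95 to -1.87), while the double mutant lay at 0.13 (0.10 to 0.15).

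*cut-1* (II:11269122-11271660), whose protein is needed for the alae of dauer larvae, was a gene of few reads. It had 92 and 85 reads in the WT files, 48 and 41 in the *nfki-1* mutant, 1 and 2 in the *ikb-1* mutant and 1 and 2 in the double mutant. Only 3 reads stood in each of the strains that carry *nr2027*, where the log2 ratios were -6.06 (interval -8.35 to -4.49) and -5.97 (-8.26 to -4.40), against -1.43 (-1.81 to -1.05) in the *nfki-1* mutant. Between the double mutant and the *nfki-1* mutant the log2 ratio was -4.54 (interval -6.85 to -2.95).

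*cut-3* and *cut-5* are needed for the alae of L1 larvae. *cut-3* had 2.46 and 2.25 CPM in L4 WT, 0.515 and 0.589 in the *nfki-1* mutant, 0.569 and 0.567 in the *ikb-1* mutant, and 1.26 and 1.32 in the double mutant, with log2 ratios of -2.09 (interval -2.75 to -1.46), -2.05 (-2.77 to -1.38) and -0.87 (-1.40 to -0.36). *cut-5* had 5.46 and 4.72 CPM in WT, 0.832 and 0.706 in the *nfki-1* mutant, 0.664 and 0.803 in the *ikb-1* mutant, and 1.67 and 1.88 in the double mutant, with log2 ratios of -2.72 (interval -3.25 to -2.22), -2.79 (-3.39 to -2.24) and -1.53 (-1.94 to -1.13). For both genes the order was WT, then the double mutant, then the single mutants, which lay close to each other.

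*cut-6*, needed for the alae and the body shape of dauer larvae, had the same order. It had 14.5 and 13.4 CPM in WT, 2.49 and 2.83 in the *nfki-1* mutant, 2.42 and 2.31 in the *ikb-1* mutant, and 4.75 and 4.73 in the double mutant, with log2 ratios of -2.38 (interval -2.67 to -2.11), -2.56 (-2.88 to -2.24) and -1.57 (-1.81 to -1.32). *cut-4* had 55.7 and 64.4 CPM in WT, 34.6 and 39.0 in the *nfki-1* mutant, 39.6 and 45.2 in the *ikb-1* mutant, and 99.4 and 114 in the double mutant. Its log2 ratios stayed within 1, at -0.70 (interval -0.79 to -0.61), -0.50 (-0.59 to -0.41) and 0.82 (0.75 to 0.89), and *cut-4* was the *cut* gene nearest to WT in the single mutants.

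The *cutl* genes are named for their likeness to cuticlins. Of the 29, 24 passed the filter on low counts at L4, and *cutl-1*, *cutl-2*, *cutl-5*, *cutl-7* and *cutl-13* did not, with 0 to 12 reads per L4 file. Their medians over the 24 were log2 ratios of -1.10 in the *nfki-1* mutant, -0.73 in the *ikb-1* mutant and -0.48 in the double mutant, where the medians of the 5 precuticle genes were -2.49, -2.52 and -3.46. A log2 ratio of -2 or lower was reached by 5 *cutl* genes in the *nfki-1* mutant, 5 in the *ikb-1* mutant and 4 in the double mutant. Of all tested genes, 6.4%, 4.22% and 2.01% were that low. These counts include *cutl-6*, *cutl-9* and *cutl-25*, which passed the filter through the WT files alone.

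*cutl-28* had the most reads of the *cutl* genes that were this low. Its level was 23.5 CPM in WT, 2.61 in the *nfki-1* mutant, 3.41 in the *ikb-1* mutant and 4.31 in the double mutant, with log2 ratios of -3.17 (interval -3.44 to -2.90), -2.78 (-3.05 to -2.53) and -2.45 (-2.69 to -2.21). *cutl-29* had 5.22 CPM in WT, 0.594 in the *nfki-1* mutant, 0.925 in the *ikb-1* mutant and 1.16 in the double mutant, with log2 ratios of -3.13 (interval -3.74 to -2.57), -2.50 (-3.03 to -1.99) and -2.17 (-2.67 to -1.70). WT was the highest strain for both genes, and each mutant was lower by 4.5-fold to 8.98-fold.

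Below 2 CPM in WT, the intervals were wide. *cutl-25*, named after its values were seen like the next 3, had 0.829 CPM in WT and log2 ratios of -3.07 (interval -4.79 to -1.69) in the *nfki-1* mutant, -2.32 (-3.75 to -1.11) in the *ikb-1* mutant and -2.46 (-4.01 to -1.17) in the double mutant. *cutl-6* had 1.71 CPM in WT and ratios of -2.97, -2.85 and -1.92. *cutl-9* and *cutl-11*, with 0.829 and 1.15 CPM in WT, passed -2 in some mutants, with -2.22 in the *nfki-1* mutant and -2.23 in the double mutant for *cutl-9*, and -2.28 in the *ikb-1* mutant for *cutl-11*, all with intervals that reached above -2.

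The other *cutl* genes did not pass a log2 ratio of 2 in any mutant. *cutl-8* had 1.39 CPM in WT, 0.356 in the *nfki-1* mutant, 1.73 in the *ikb-1* mutant and 1.39 in the double mutant, and was low in the *nfki-1* mutant alone, at -1.96 (interval -2.83 to -1.17). *cutl-15* had 23.1, 9.88, 12.8 and 27.1 CPM in the same order of strains, and *cutl-12* had 4.66, 3.56, 4.29 and 7.08 CPM. For *cutl-12* and *cutl-15* the double mutant was the highest strain and the *nfki-1* mutant the lowest.

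A few *cutl* genes lay above WT. *cutl-10* had 2.17 CPM in WT, 4.42 in the *nfki-1* mutant, 3.65 in the *ikb-1* mutant and 1.49 in the double mutant, with log2 ratios of 1.03 (interval 0.65 to 1.41), 0.75 (0.36 to 1.16) and -0.54 (-1.05 to -0.04). *cutl-23* had 4.01, 5.21, 6.66 and 9.62 CPM, with log2 ratios of 0.38 (interval 0.08 to 0.68), 0.73 (0.44 to 1.03) and 1.26 (0.99 to 1.54). *cutl-10* was highest in the *nfki-1* mutant and *cutl-23* in the double mutant. *cutl-24* had 8.72 CPM in WT, 9.59 in the *nfki-1* mutant, 7.71 in the *ikb-1* mutant and 6.42 in the double mutant. In the same order, *cutl-21* had 1.12, 0.792, 1.38 and 0.781 CPM, *cutl-22* had 0.428, 0.475, 0.616 and 0.630 CPM, and *cutl-27* had 1.10, 0.555, 0.830 and 1.11 CPM. The log2 ratios of these 4 genes lay within 1 in all mutants, from -0.98 for *cutl-27* in the *nfki-1* mutant to 0.56 for *cutl-22* in the double mutant.

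**Figure D2:**
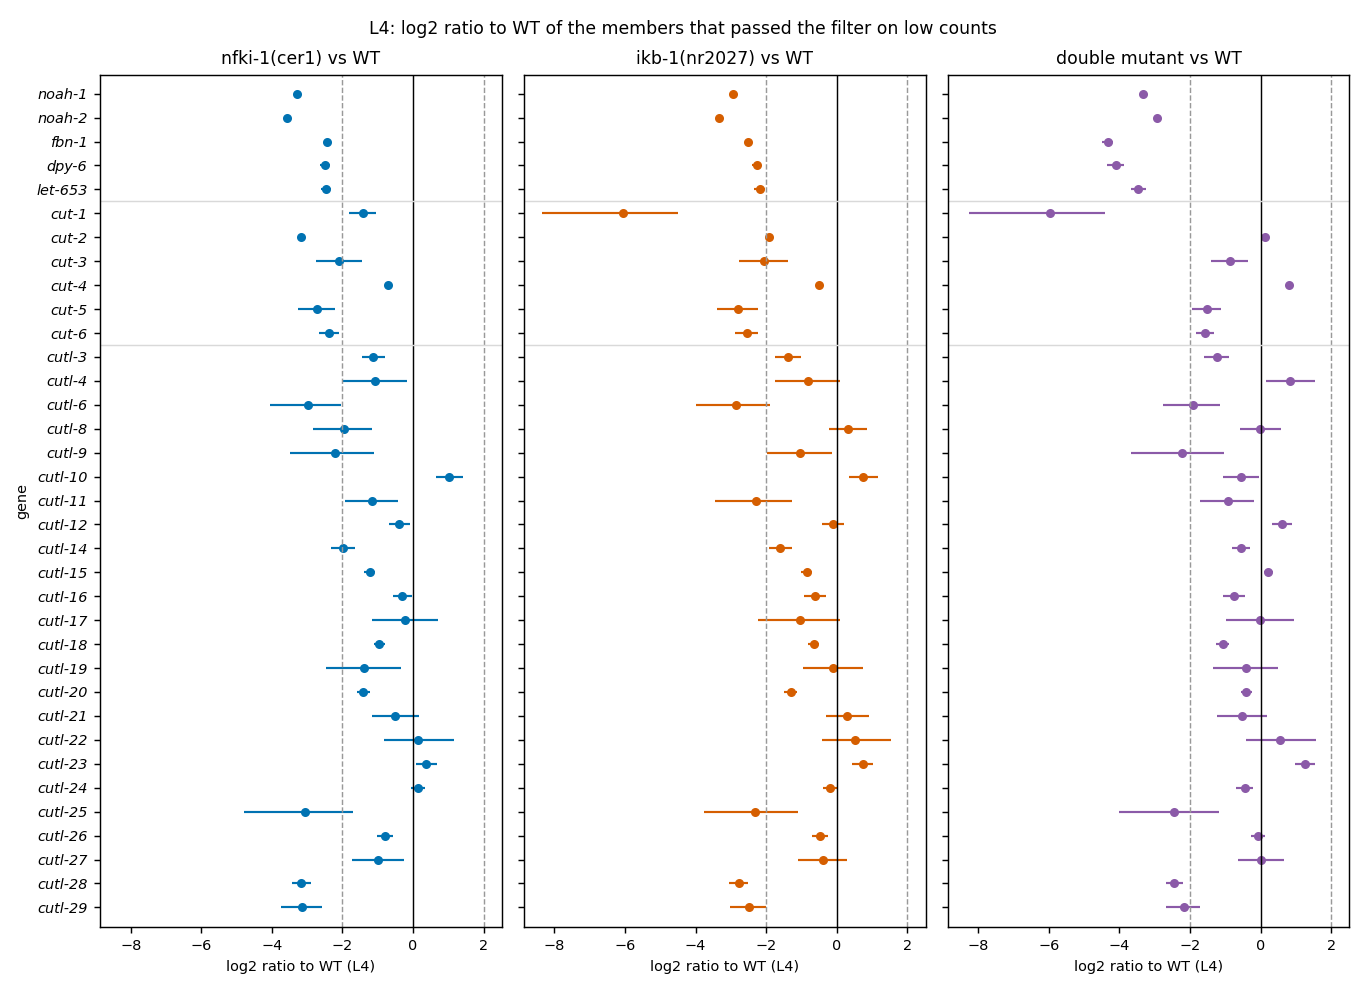
Log2 ratio to WT at L4 of the 35 members that passed the filter on low counts, 1 panel per mutant, with genes on the vertical axis in the order precuticle, *cut* and *cutl* and exact binomial 95% intervals of counting error as lines. Dashed lines mark log2 ratios of -2 and 2, and the points left of -2 number 14 in the *nfki-1* mutant, 14 in the *ikb-1* mutant and 10 in the double mutant. *cutl-6*, *cutl-9* and *cutl-25* passed the filter through the WT files alone.

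Counted over the 35 tested members, 14 were lower by a log2 ratio of 2 or more in the *nfki-1* mutant, where 6.4% of all 14812 tested genes were, and none was higher, where 12.9% of all genes were. In the *ikb-1* mutant 14 were lower and none higher, where 4.22% and 12% of all genes were. In the double mutant 10 were lower and none higher, where 2.01% and 7.19% of all genes were. The median log2 ratio of the tested members was -1.42 in the *nfki-1* mutant, -1.30 in the *ikb-1* mutant and -0.75 in the double mutant, beside -0.05, -0.02 and -0.06 over all genes. The 3 comparisons share the WT sample and are not independent of each other. *cutl-6*, *cutl-9* and *cutl-25* passed the filter on low counts through the WT files alone, and this favoured a lower value in the mutants. All of them are among the lower members in the *nfki-1* mutant, *cutl-6* and *cutl-25* in the *ikb-1* mutant, and *cutl-9* and *cutl-25* in the double mutant. How many of all genes passed in this way was not computed.

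At a log2 ratio of 1, the members below WT were 23 in the *nfki-1* mutant, 20 in the *ikb-1* mutant and 15 in the double mutant, where 23.2%, 19.9% and 7.49% of all genes were. The members above WT were 1, 0 and 1, where 28.1%, 27.2% and 18.6% of all genes were. They were *cutl-10* in the *nfki-1* mutant and *cutl-23* in the double mutant. When only library totals set the scale, the all-gene median lay at 0.359, 0.305 and 0.133 in the same order of mutants, and 11, 9 and 9 members were lower by 2 or more. At that scale the share of all genes was not computed.

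With each L4 strain taken as 1 sample that varies like the L1 replicates, and with no term for the replicate number, edgeR's quasi-likelihood test called none of the 40 members in any L4 mutant (adjusted p under 0.01 and a size of 2 or more in log2). Of all 21293 genes in that fit it called 2.12% higher and 0.315% lower in the *nfki-1* mutant, 0.916% higher and 0.0423% lower in the *ikb-1* mutant, and 0% in either direction in the double mutant. The smallest adjusted p of a member by edgeR was 0.0104 for *cutl-29* in the *nfki-1* mutant, 0.0202 for *cutl-29* in the *ikb-1* mutant and 0.0614 for *let-653* in the double mutant. At an unadjusted p below 0.05 there were 18, 17 and 12 members, where 33%, 29.9% and 13.3% of all genes passed. The L4 differences given above are measured between single samples.

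Other genes of the same process were read beside them, in lists described by counts of genes past a log2 ratio of 2, whose single genes were named after their values were seen. The 6 furrow collagens (*dpy-2*, *dpy-3*, *dpy-7*, *dpy-8*, *dpy-9* and *dpy-10*), which form the circumferential furrows of the cuticle, were all lower in each mutant, with medians of -4.15, -3.87 and -3.25 in the *nfki-1* mutant, the *ikb-1* mutant and the double mutant. Of 10 further apical matrix genes, 4 were lower in each of the mutants, and they were *let-4*, a leucine-rich repeat protein of the epithelial matrix, the lipocalins *lpr-1* and *lpr-3*, and *sym-1*, with *lpr-3* at -3.88, -3.64 and -3.44, and 1, *egg-6*, was higher, at 2.07 in the *nfki-1* mutant. The gene of that list with the most reads, *mua-3*, which anchors muscle attachments to the cuticle, was at -0.64, -0.59 and -1.44.

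The enzymes that cross-link and process the cuticle had medians of -0.82, -0.57 and -0.15 in the same order. Of 12, 2 were lower by 2 or more in the *nfki-1* mutant, and they were *dpy-18* and *pdi-2*, subunits of the collagen prolyl hydroxylase, at -2.09 and -2.12. None of the 12 was past 2 in the *ikb-1* mutant or the double mutant, where *pdi-2* was at -1.75 and -0.85, and *bli-3*, the dual oxidase that forms tyrosine cross-links, was at 0.11, 0.13 and -0.11 in the 3 mutants. Of 16 moulting genes, 9, 5 and 5 were lower, with medians of -2.11, -1.68 and -1.34. The protease inhibitor *mlt-11*, the one with the most reads, had 842 CPM in WT and was at -3.12, -3.02 and -3.37, while *nhr-23*, a nuclear receptor that drives moulting, was at 0.67, 0.60 and -0.79.

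**Figure D3:**
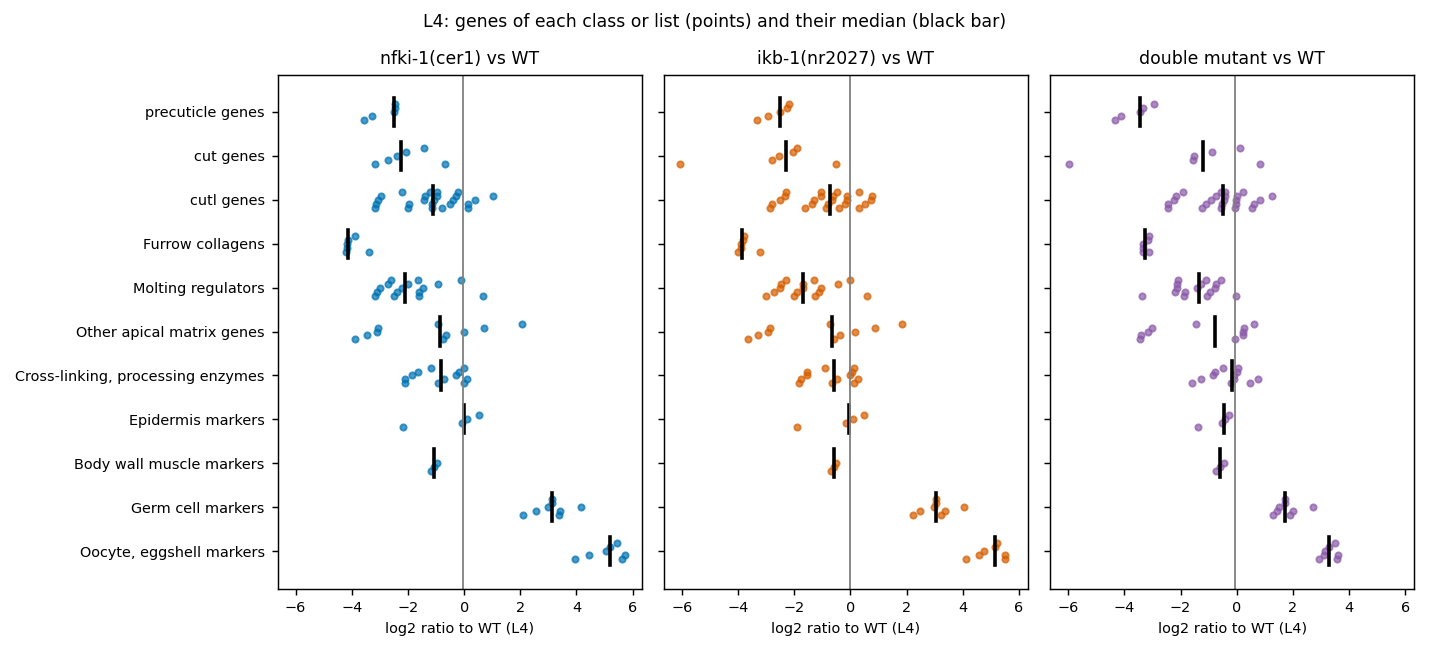
Log2 ratio to WT at L4 of the tested genes of each member class and of 8 other gene lists (points), 1 panel per mutant, with the median of each class as a black bar and the median of all genes as a grey line. The medians of the precuticle genes lie at -2.49, -2.52 and -3.46, those of the furrow collagens at -4.15, -3.87 and -3.25, and those of the oocyte and eggshell markers at 5.20, 5.16 and 3.29.

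Markers of cell types moved with the mutants as well. The 4 epidermal markers, which include the transcription factors *lin-26*, *elt-1* and *elt-3*, summed to 146 CPM in L4 WT, 115 in the *nfki-1* mutant, 115 in the *ikb-1* mutant and 89.1 in the double mutant, and their median log2 ratios were 0.01, -0.05 and -0.46. The fourth of them, *che-14*, which acts in apical secretion, was at -2.18, -1.90 and -1.38. The 8 germ cell markers summed to 240 CPM in WT and to 1972, 1915 and 846 CPM in the mutants, and 8, 8 and 2 of them were higher by 2 or more. The 7 oocyte and eggshell markers were all higher by 2 or more in each mutant, and summed to 109 CPM in WT and to 3524, 3337 and 1121 CPM in the mutants. Of 5 tested sperm markers 3, 3 and 2 were higher, and 1 or 2 of the 7 listed had no read in the L4 strains. The body wall muscle markers had medians of -1.09, -0.60 and -0.59, those of the intestine -0.94, -0.91 and -0.52, and those of neurons -0.57, -0.69 and -0.30, while the pair of pharyngeal markers had 0.21, 1.22 and 1.11. The part that germ line, muscle or moulting transcripts have in the lower matrix transcripts was not tested. With the counts scaled to the 4 epidermal markers, an alternative added after the data were seen, the members lower by 2 or more numbered 12, 9 and 6 in place of 14, 14 and 10. That scale was set by the summed reads of the 4, *che-14* included, and moved the all-gene median to 0.287, 0.321 and 0.648. The share of all genes at that scale was not computed.

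The double mutant differed from the single mutants in both directions. Against the *nfki-1* mutant, 10 members were higher by a log2 ratio of 1 or more and 4 lower, where 14.5% and 17.3% of all genes were. Against the *ikb-1* mutant, 9 were higher and 5 lower, where 10.8% and 15.3% of all genes were. *cut-2* stood out among the higher ones, at 3.30 (interval 3.25 to 3.36) above the *nfki-1* mutant and 2.04 (2.00 to 2.08) above the *ikb-1* mutant. *fbn-1* was among the lower ones, at -1.89 (interval -2.06 to -1.72) and -1.81 (-1.98 to -1.64), as was *dpy-6*, at -1.61 (-1.89 to -1.34) and -1.83 (-2.11 to -1.56). *noah-1* differed less, at -0.06 (interval -0.13 to 0.02) and -0.39 (-0.46 to -0.32).

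The summed level of the 40 members followed these patterns. At L4 they came to 2426 CPM in WT, 356.5 in the *nfki-1* mutant, 484.2 in the *ikb-1* mutant and 989.5 in the double mutant, and *noah-1*, *noah-2* and *cut-2* held 78.1% of the sum in WT and 52.3%, 61.5% and 75.5% in the mutants. The precuticle genes summed to 1645 CPM in WT and to 179.6, 209.1 and 172.7 CPM in the mutants, nearly the same in each. The *cut* genes summed to 627.9 CPM in WT, 102.6 in the *nfki-1* mutant, 190.3 in the *ikb-1* mutant and 705.5 in the double mutant, so that the higher sum of the double mutant lay in *cut-2* and *cut-4*.

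Levels were compared between genes only per length, as CPM divided by the exonic length in kilobases (RPKM). *cut-2* was first in every L4 strain, with 584 RPKM in WT, 64.6 in the *nfki-1* mutant, 155 in the *ikb-1* mutant and 638 in the double mutant. *noah-2* with 273 RPKM and *noah-1* with 172 came next in WT, and *cut-4* with 59.0 RPKM was second in the double mutant. At L1, *cut-2* was first in WT with a mean of 25.4 RPKM, followed by *cut-3* with 18 and *cutl-15* with 17.2. *cutl-15* was first in *nfki-1(cer2)* with 15.7 RPKM and *cut-3* in *ikb-1(cer9)* with 18.3, and the libraries of WT overlapped for the first 3 genes.

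In WT, the L4 sample was compared with the 2 L1 libraries in a fit of 10 samples (4 L4 samples and 6 L1 libraries), scaled together, with the spread of the L1 replicates. Stage cannot be told apart from anything else that differed between the L4 and the L1 libraries, and the median of all genes lay at -0.59. By edgeR, 10 of the 40 members were higher at L4 and 3 lower (adjusted p under 0.01 and a size of 2 or more in log2), where 8.25% and 9.67% of all genes were. The 10 were *noah-1*, *noah-2*, *fbn-1*, *let-653*, *cut-1*, *cut-2*, *cut-4*, *cut-6*, *cutl-18* and *cutl-28*, and the 3 were *cutl-19*, *cutl-21* and *cutl-23*. Of the higher ones, *cut-1* passed the filter of this fit through L4 samples alone, and this favoured a higher value at L4.

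*noah-2* had 808 CPM at L4 and 4.37 and 16.9 CPM at L1 on this common scale, a log2 fold change of 6.25 (SE 1.04, edgeR adjusted p = 0.0051). *cut-4* had 69.3 CPM at L4 and 1.29 and 1.03 at L1, a log2 fold change of 5.89 (SE 0.379, edgeR adjusted p = 0.00046). *cut-1* had 1 read in each of the WT L1 libraries, so that its fitted log2 fold change of 8.27 (SE 1.08) rests on 2 reads. The remaining precuticle genes gave 5.32 (SE 0.745) for *noah-1*, 3.96 (SE 0.582) for *fbn-1*, 4.13 (SE 0.332) for *let-653* and 1.28 (SE 0.768, edgeR adjusted p = 0.2) for *dpy-6*, so *dpy-6* alone of the 5 did not pass.

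The 3 members lower at L4, 7.5% beside 9.67% of all genes, were all *cutl* genes, which are 29 of the 40 members. *cutl-23* had 4.63 CPM at L4 and 39.3 and 21.6 at L1, a log2 fold change of -2.72 (SE 0.462, edgeR adjusted p = 0.0055), and *cutl-21* had 1.3 CPM at L4 and 6.53 and 8.59 at L1, a log2 fold change of -2.54 (SE 0.422). *cut-3*, a gene of the L1 alae, had 2.72 CPM at L4 and 9.47 and 33 at L1. Its L1 libraries differed by more than 3-fold, and its log2 fold change of -2.96 (SE 1.16) had an edgeR adjusted p of 0.0753. Without WT L1 replicate 1, 7 members were higher and 2 lower, and *fbn-1* and *cut-6* were among those that no longer passed by edgeR (adjusted p of 0.0103 and 0.0302). Without WT L1 replicate 2, 10 were higher and 1 lower, and *cut-6* and *cutl-21* did not pass (0.0161 and 0.0122). All-gene shares were not computed for these omissions.

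**Figure D4:**
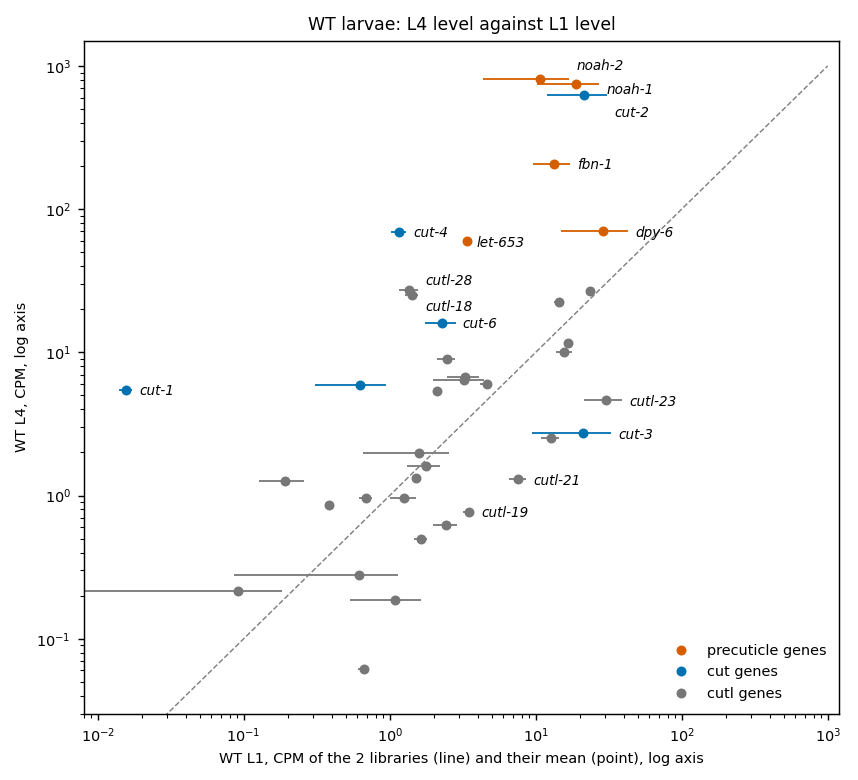
Level of each member in WT at L4 (vertical log axis) against WT at L1 (horizontal log axis), in CPM scaled over both stages, where a point is the mean of the 2 L1 libraries, a line joins them and the dashed diagonal marks equal levels. Of the precuticle genes in orange, *noah-1* and *noah-2* lie highest above the diagonal, with 754 and 808 CPM at L4, and *cutl-19*, *cutl-21*, *cutl-23* and *cut-3* lie below it (*cutl-2*, with no read in L4 WT, is left out, and the line of *cutl-7* ends at the left edge because 1 L1 library had no read).

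At L1, no member passed edgeR's quasi-likelihood test in either mutant. Of the 40, 38 passed the filter, and *cut-1* and *cutl-7*, with 0 to 13 reads per library, did not. At an adjusted p below 0.01, 0 members and 0% of all 19183 genes were called in either direction and in both mutants, and the smallest adjusted p of a member was 1. DESeq2 called 2 and 10 genes in all and none of the members. At an unadjusted p below 0.05, edgeR had 0 members higher and 1 lower in *nfki-1(cer2)*, where 0.344% and 0.568% of all genes were. In *ikb-1(cer9)* it had 0 members in either direction, where 0.735% of all genes were higher and 0.485% lower. The labels number 2 replicates per L1 strain, while the description of the series gives 1 replicate per strain at that stage. Neither says that the replicates came from separate cultures, and the p-values here and in the fits that take the L1 spread measure the spread between these libraries, which may be technical.

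The member with the smallest p was *cutl-23*. It had 43.4 and 23.1 CPM in L1 WT, 20.9 and 16.8 in *nfki-1(cer2)*, and 23.2 and 27.8 in *ikb-1(cer9)*. The *nfki-1(cer2)* libraries lay below both WT libraries, with a log2 fold change of -0.82 (SE 0.326). In edgeR's test across all genes its p was 0.045 and its adjusted p 1, and the *ikb-1(cer9)* libraries lay within the range of WT.

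*cut-2* and *fbn-1* followed in *nfki-1(cer2)*. *cut-2* had 34.2 and 12.8 CPM in L1 WT, 12.1 and 6.67 in *nfki-1(cer2)*, and 10.7 and 21.0 in *ikb-1(cer9)*, log2 fold changes of -1.32 (SE 0.574) and -0.57 (SE 0.566). *fbn-1* had 10.6 and 18.3 CPM in WT, 7.26 and 5.92 in *nfki-1(cer2)*, and 9.63 and 24.4 in *ikb-1(cer9)*, log2 fold changes of -1.13 (SE 0.485) and 0.23 (SE 0.477). The *nfki-1(cer2)* libraries were below those of WT for both genes, while *ikb-1(cer9)* overlapped WT for *cut-2* and spanned it for *fbn-1*. Neither gene passed, with an edgeR p of 0.059 and 0.057 in *nfki-1(cer2)* and an adjusted p of 1.

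*noah-1* and *noah-2* overlapped between the strains at L1. *noah-1* had 11.4 and 29.3 CPM in WT, 12 and 13 in *nfki-1(cer2)*, and 12.1 and 32.5 in *ikb-1(cer9)*. *noah-2* had 4.83 and 18.1 CPM in WT, 5.09 and 5.80 in *nfki-1(cer2)*, and 4.65 and 19.2 in *ikb-1(cer9)*. In WT and *ikb-1(cer9)*, replicate 2 was the higher library for both genes, by a log2 difference of 1.37 and 1.42 for *noah-1* and 1.90 and 2.05 for *noah-2*, while in *nfki-1(cer2)* it was 0.12 and 0.19. Within replicate 1 the log2 ratio of *nfki-1(cer2)* to WT was 0.07 for *noah-1* and 0.08 for *noah-2*, and within replicate 2 it was -1.17 and -1.64.

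*dpy-6* had 16.5 and 46.0 CPM in WT, 11.7 and 36.4 in *nfki-1(cer2)*, and 43.3 and 34.5 in *ikb-1(cer9)*. *let-653* had 3.66 and 3.74 CPM in WT, 3.24 and 3.52 in *nfki-1(cer2)*, and 4.65 and 2.87 in *ikb-1(cer9)*. *dpy-6* thus varied by over 2-fold within WT and within *nfki-1(cer2)*, and its strains overlapped. *let-653* had the smallest SE of the 5 precuticle genes, with log2 fold changes of -0.13 (SE 0.312) and 0.02 (SE 0.312), and its *nfki-1(cer2)* libraries lay just below those of WT.

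Among the *cut* genes at L1, *cut-3* had many reads and *cut-1* had 1 to 7 reads per library. *cut-3* had 10.46 and 35.4 CPM in WT, 11.7 and 22.3 in *nfki-1(cer2)*, and 9.90 and 36.7 in *ikb-1(cer9)*, with replicate 2 the higher library in every strain. *cut-4* had 1.43 and 1.10 CPM in WT, 1.14 and 1.5 in *nfki-1(cer2)*, and 2.09 and 1.23 in *ikb-1(cer9)*. The strains overlapped for both genes.

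*cut-5* had 0.342 and 1.01 CPM in WT, 0.664 and 0.476 in *nfki-1(cer2)*, and 0.527 and 0.904 in *ikb-1(cer9)*. *cut-6* had 1.94 and 3.03 CPM in WT, 1.74 and 3.56 in *nfki-1(cer2)*, and 2.64 and 4.19 in *ikb-1(cer9)*. These genes overlapped between strains too, and the log2 fold changes of *cut-3*, *cut-4*, *cut-5* and *cut-6* ran from -0.43 (SE 0.776, *cut-3*) to 0.09 (SE 0.468, *cut-6*) in *nfki-1(cer2)* and from 0.03 (SE 0.774, *cut-3*) to 0.46 (SE 0.467, *cut-6*) in *ikb-1(cer9)*.

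In *ikb-1(cer9)* the *cutl* genes with the smallest p were *cutl-22*, *cutl-27* and *cutl-28*. *cutl-22* had 2.00 and 1.58 CPM in WT, 1.91 and 1.70 in *nfki-1(cer2)*, and 1.17 and 1.3 in *ikb-1(cer9)*, where both libraries lay below the others, at a log2 fold change of -0.54 (SE 0.327). *cutl-27* had 0.140 and 0.275 CPM in WT, 0.237 and 0.187 in *nfki-1(cer2)*, and 0.256 and 0.643 in *ikb-1(cer9)*, at 1.11 (SE 0.709). *cutl-28* had 1.27 and 1.67 CPM in WT, 1.41 and 1.4 in *nfki-1(cer2)*, and 1.42 and 2.88 in *ikb-1(cer9)*, at 0.55 (SE 0.431). The strains overlapped for *cutl-27* and *cutl-28*, and none of the 3 genes passed, with an adjusted p of 1 by edgeR.

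Among other *cutl* genes with many reads at L1, the strains overlapped for *cutl-24* and *cutl-10*, and the libraries of both mutants lay just below those of WT for *cutl-15*. *cutl-15* had 24.8 and 26.0 CPM in WT, 24.7 and 21.9 in *nfki-1(cer2)*, and 24.2 and 23.7 in *ikb-1(cer9)*. *cutl-24* had 15.2 and 18.9, 12.7 and 18.2, and 18.8 and 15.1 CPM, and *cutl-10* had 12 and 15.6, 7.47 and 15.5, and 14.6 and 14.9 CPM, in the same order. *cutl-15* had the smallest SE of the members, 0.169, with a log2 fold change of -0.08 for *ikb-1(cer9)* and -0.13 for *nfki-1(cer2)*.

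*cutl-29*, low in the L4 mutants, had 4.63 and 5.38 CPM in L1 WT, 4.18 and 4.41 in *nfki-1(cer2)*, and 5.51 and 4.69 in *ikb-1(cer9)*, with log2 fold changes of -0.22 (SE 0.241) and 0.03 (SE 0.241). *cutl-21* had 7.22 and 9.20 CPM in WT, 7.23 and 8.58 in *nfki-1(cer2)*, and 7.32 and 9.35 in *ikb-1(cer9)*. *cutl-8* had 1.46 and 2.39, 1.42 and 0.868, and 1.52 and 2.40 CPM, and *cutl-12* had 2.38 and 2.18, 2.29 and 2.2, and 2.72 and 2.62 CPM, in the same order. The *nfki-1(cer2)* libraries of *cutl-29* and *cutl-8* lay below both WT libraries, and those of *cutl-21* and *cutl-12* did not.

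Over the 38 tested members, the median log2 fold change at L1 was -0.22 in *nfki-1(cer2)*, where 30 were negative, and 0.05 in *ikb-1(cer9)*, where 11 were negative. Over all genes tested, the medians were -0.0029 and -0.018, and 50.4% and 53.5% of the genes were negative. The fold changes ran from -1.32 (*cut-2*) to 0.20 (*cutl-4*) and from -0.66 (*cutl-1*) to 1.11 (*cutl-27*), with standard errors of 0.169 to 1.14 and a median of 0.449 in *nfki-1(cer2)*. The ratio within replicate 1 and that within replicate 2 had opposite signs in 21 of the 38 members for *nfki-1(cer2)* and 24 for *ikb-1(cer9)*. The share of all genes with opposite signs was not computed, so these counts are not read as a trait of the members.

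**Figure D5:**
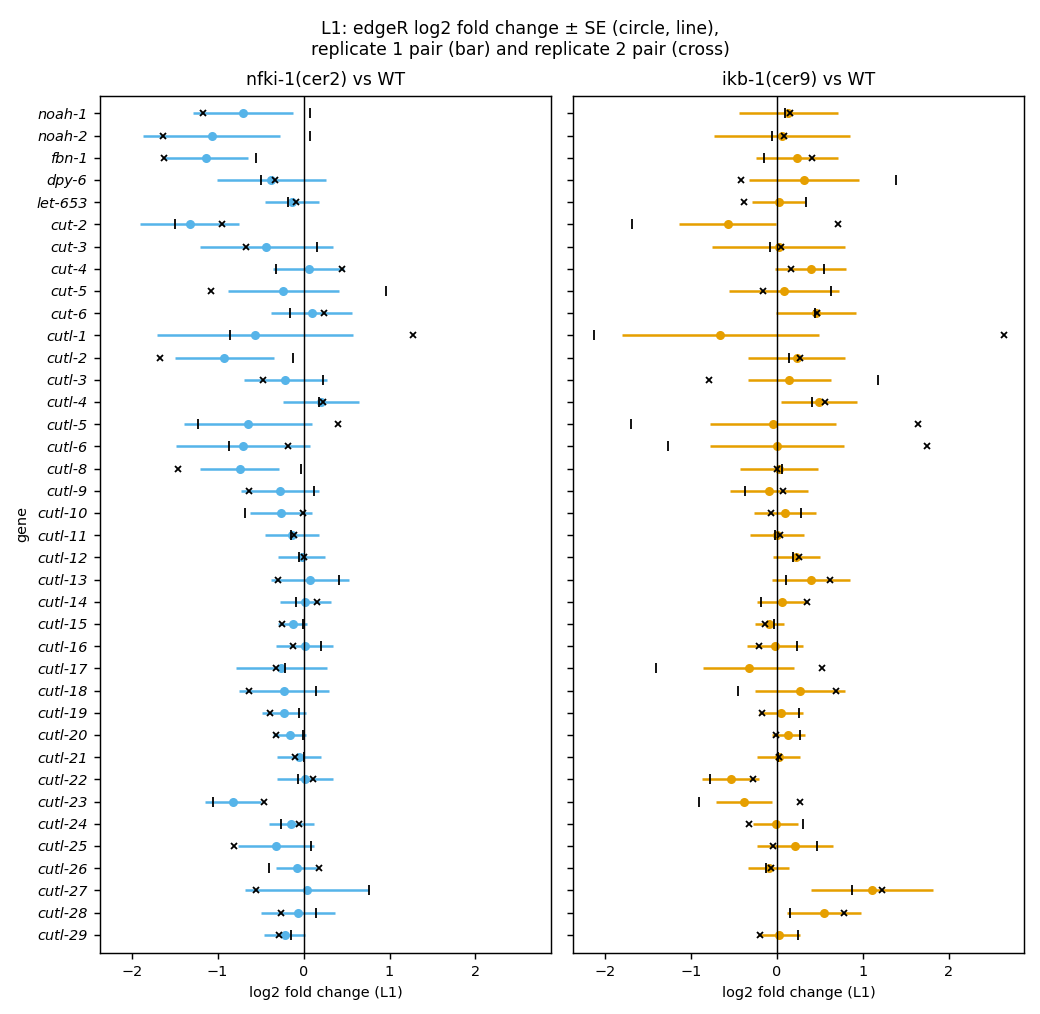
Log2 fold change at L1 (edgeR, circle, with its SE as a line) of the 38 tested members in *nfki-1(cer2)* and *ikb-1(cer9)*, with the log2 ratio of the replicate 1 libraries as a bar and that of the replicate 2 libraries as a cross. The 2 ratios lie on opposite sides of 0 for 21 members in the left panel and 24 in the right panel (the share of all genes was not computed), and *cut-2* in *nfki-1(cer2)* has the lowest fold change, -1.32.

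The change at L4 was set against that at L1 in the 10-sample fit, with different alleles of each gene at the 2 stages. By edgeR no member passed an adjusted p of 0.01 for this difference, where 0.047% of all genes were higher and 0% lower for *nfki-1* and 0% in either direction for *ikb-1*. At an unadjusted p below 0.05, 1 member was higher and 9 lower for *nfki-1*, where 13.9% and 11.9% of all genes were, and 1 was higher and 14 lower for *ikb-1*, where 13.4% and 10.1% of all genes were. The higher one was in both cases *cutl-2*, which had no read in L4 WT. The smallest adjusted p were those of *cutl-29*, whose log2 difference was -2.96 (SE 0.503, edgeR adjusted p = 0.0298) for *nfki-1* and -2.62 (SE 0.497, edgeR adjusted p = 0.0451) for *ikb-1*. A larger effect at L4 than at L1 is thus not shown for any member at the threshold used.

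The members were spread over the genome, with 8 on chromosome I and 6 on X. Exons of 20 members overlap those of another gene in the annotation, and for 3 of them the other gene is on the same strand, *noah-2* and *cutl-1* with a piRNA locus and *cutl-20* with *shc-1* over 221 bases. The setting for strand in the counting is not given in the sources used here, and reads from opposite strands of such overlaps may be assigned to either gene or to none. *noah-1*, *let-653*, *cut-2*, *cut-4*, *cut-6* and *cutl-28* overlap no other gene.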

How the data were processed

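The authors trimmed single-end reads with Trim Galore, aligned them to WBcel235 with Bowtie2 and counted them per gene with HTSeq, and the deposited counts are whole numbers without normalization. Rows that name no gene held 13.4 to 15.9% of the reads at L4 and 15.9 to 20% at L1 and were left out. Counting error limits the ratios of genes with few reads.

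L4 counts were summed per strain, scaled by TMM and given as log2 ratios with exact binomial 95% intervals, called at a size of 2. The L1 fit and the 10-sample fit used edgeR's quasi-likelihood test with Benjamini-Hochberg adjustment over all genes, called at an adjusted p below 0.01. In the 10-sample fit, the L4 mutants against WT and WT L4 against WT L1 also needed a size of 2 or more in log2. Genes were kept by filterByExpr with a minimum count of 10. The tools were R 4.3.3, edgeR 4.0.16, DESeq2 1.42.0, Python 3.11.15, numpy 2.4.6, pandas 2.3.3 and matplotlib 3.10.9. The fits were run on simulated counts with the same spread for all genes, and the L4 ratios on counting error alone. How they behave at the spread of these libraries was not checked.

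The members and lists were chosen with earlier results of these data known. Given with full values were the precuticle and *cut* genes, the *cutl* genes among the 5 largest ratios in either direction in an L4 mutant with a mean of at least 1 CPM, and the members with the 3 smallest p of each L1 comparison. Other *cutl* genes were named after their values were seen. The alternatives were other scalings, tools, filters and thresholds, fits with a replicate block and the omission of each replicate.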

Additional observations from a re-analysis of the deposited data

How the results depend on the processing

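Of the L4 counts of members lower than WT by 2 or more, 14, 14 and 10 in the *nfki-1* mutant, the *ikb-1* mutant and the double mutant, none moved by over 1.5 times with RLE factors, without a filter, or with edgeR or DESeq2 over the 8 files as separate libraries (edgeR with or without a replicate block). Without replicate 1 or 2 in turn the counts ran from 13 to 15, 13 to 13 and 9 to 11. The files of an L4 strain were counted as 1 sample. Neither the fits over the 8 files nor these omissions measure the spread between samples, so they do not show that the counts would recur. With library totals alone 9 were lower in the *ikb-1* mutant, and scaled to the epidermal markers 9 were lower there and 6 in the double mutant. At a log2 ratio of 1, 23 were lower and 1 higher in the *nfki-1* mutant and 1 higher in the double mutant. Without a filter, and at a log2 ratio of 2, 1 was higher in the *ikb-1* mutant. With the spread of the L1 replicates 0, 0 and 0 were lower, and with the replicate block in that fit 5, 6 and 0, where 1644, 1176 and 41 of all 21293 genes were called in either direction. The cause of these moves was not tested.

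At L1 the count of 0 became 1 lower in *nfki-1(cer2)* at an unadjusted p below 0.05, and stayed 0 with the replicate block. The labels do not say what libraries with the same replicate number share. The difference between replicates 2 and 1 correlated between strains across genes, with Pearson's r of 0.473 to 0.749 at L1. Genes are not independent replicates in that correlation. Of WT L4 against WT L1, 3 lower members became 5 with library totals, 5 without a filter and 6 with DESeq2, and ran from 1 to 2 without a WT L1 replicate. For these alternatives the all-gene shares were not computed. Depth limits the 5 members not tested at L4 and the 2 at L1.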

Other observations

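Of 5 adult cuticle collagens, 3 passed the filter on low counts at L4, and *col-7* and *col-62* did not. The 3 lay on both sides of WT in the L4 mutants. *col-19*, a collagen that is switched on in the adult epidermis, had 211 CPM in L4 WT, 2297 in the *nfki-1* mutant, 2479 in the *ikb-1* mutant and 2364 in the double mutant, which gave 3.44, 3.55 and 3.48 as log2 ratios. *bli-1* and *bli-2*, collagens of the struts that join the layers of the adult cuticle, were lower, at -2.73, -2.50 and -2.22 for *bli-1* and -2.96, -2.64 and -1.41 for *bli-2*. The L4 strains have 1 sample each, and these ratios carry no test.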
